A study of Mus musculus with 15 samples.

Results

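The genes described here encode the mouse receptors for the constant part of IgG, the chains and transporters that go with them, and a related microglial receptor: Fcgr1, Fcgr2b, Fcgr3, Fcgr4, Fcer1g, Fcgrt and Fcrls. They were taken by symbol from the deposited expression table, with the highest-signal row kept for each symbol, and all 7 were found, with 1 row each, among 30971 genes with a symbol. Expression was measured on 15 arrays of sorted adult mouse microglia, 1 array per mouse. Every mouse carried floxed Tgfbr2 alleles (fl/fl), and a yellow fluorescent reporter at the R26 locus (R26-yfp), on a C57BL/6 background. In Cre/+ TAM (6 mice), a tamoxifen-inducible Cre under the Cx3cr1 promoter (Cx3cr1CreERT2) was present and tamoxifen was injected, so that Tgfbr2, a receptor for TGF-β, could be deleted in Cx3cr1-expressing cells. In wt TAM (6 mice), the same floxed mice without Cre received the same tamoxifen. In Cre/+ OIL (3 mice), Cre carriers received oil alone. Injections were given at 6 to 8 weeks of age, and cells were sorted 4 weeks later.

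Several features of the model bear on these groups. The Cx3cr1 promoter is also active in border-associated macrophages and other myeloid cells, recombination need not reach every cell, and the Cre allele takes the place of a Cx3cr1 copy in Cre/+ TAM and Cre/+ OIL but not in wt TAM. The sort gate in the labels is CD11b+ and CD45low for all samples, whereas the methods of the study give YFP+ and CD45low for the tamoxifen-treated Cre carriers, so gate and genotype cannot be told apart in that comparison. The mice are named here by the array number that opens the bracket in their titles, and the titles also number them in a lower range (arrays P098_04 to P098_11) and an upper range (arrays P098_13 to P098_19). The lower range holds 2 Cre/+ TAM, 3 wt TAM and all 3 Cre/+ OIL mice, and the upper range holds 4 Cre/+ TAM and 3 wt TAM mice. No source says what sets these ranges apart, or what the word neg in the titles of 3 arrays (P098_11 of wt TAM, P098_04 and P098_05 of Cre/+ OIL) stands for. Values per mouse are given below in the order P098_07, P098_09, P098_14, P098_16, P098_18 and P098_19 for Cre/+ TAM, P098_11, P098_06, P098_10, P098_13, P098_15 and P098_17 for wt TAM, and P098_04, P098_05 and P098_08 for Cre/+ OIL. The methods of the study describe the controls as littermates, but no source says which mice share a litter, so litter was not part of any fit and p-values measure the spread between mice.

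Fcγ receptors sit on the surface of macrophages and bind IgG that coats particles, cells or immune complexes. Fcgr1, Fcgr3 and Fcgr4 are the activating receptors. They reach the surface together with the common γ chain, the product of Fcer1g, whose ITAM motif is phosphorylated by Src-family kinases and then recruits the kinase Syk, which leads to phagocytosis and cytokine release. Fcgr2b is the inhibitory receptor, which carries an ITIM and recruits phosphatases that oppose the same chain. Fcgrt encodes the heavy chain of the neonatal Fc receptor, which pairs with β2-microglobulin and returns IgG from endosomes to the surface instead of letting it be degraded. Fcrls is an Fc receptor-like gene without a known IgG ligand and is widely used as a marker of resident microglia in the mouse.

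Of the 7 genes, 4 lie on chromosome 1. Fcgr2b (chr1:170960558-170976127, minus strand), Fcgr4 (chr1:171018920-171029761, plus strand) and Fcgr3 (chr1:171051169-171064935, minus strand) lie side by side, with Fcer1g (chr1:171229572-171234365, minus strand) farther along. Fcgrt is at chr7:45092993-45103822, Fcgr1 at chr3:96282909-96294256 and Fcrls at chr3:87250758-87263738, all on the minus strand. These are the positions in the deposited annotation, and each overlaps the RefSeq gene of that symbol in GRCm38.p6. Each signal is a summary of 16 (Fcgr3) to 28 (Fcer1g) probes. The annotation gives all 7 clusters the same class for cross-hybridisation (type 1). The probe sequences were not examined, which matters most for Fcgr2b and Fcgr3, whose extracellular parts are close in sequence.

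The upstream sequences of Fcgr4 and Fcgr1 are shown because Fcgr4 had the largest difference between the groups, both genes are known to respond to interferon-γ, and a list of interferon-stimulated genes was highest in the mice with the most Fcgr4. They are the 250 bases before the transcript start in RefSeq (GRCm38.p6), read 5′ to 3′ along the gene, at chr1:171018676-171018925 (plus strand) for Fcgr4 and at chr3:96293970-96294219 (minus strand) for Fcgr1. Capitals mark matches on either strand to GAAA, any 2 bases and GAAA (the interferon-stimulated response element, ISRE), TTCNNNGAA (the gamma-activated site, GAS) or GAGGAA (a core of the sites of PU.1, the macrophage transcription factor).
Fcgr4: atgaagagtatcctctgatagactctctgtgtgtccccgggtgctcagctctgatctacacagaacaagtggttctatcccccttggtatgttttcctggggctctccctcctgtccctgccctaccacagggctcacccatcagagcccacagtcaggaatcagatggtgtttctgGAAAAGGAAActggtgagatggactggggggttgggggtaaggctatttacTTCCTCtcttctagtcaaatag
Fcgr1: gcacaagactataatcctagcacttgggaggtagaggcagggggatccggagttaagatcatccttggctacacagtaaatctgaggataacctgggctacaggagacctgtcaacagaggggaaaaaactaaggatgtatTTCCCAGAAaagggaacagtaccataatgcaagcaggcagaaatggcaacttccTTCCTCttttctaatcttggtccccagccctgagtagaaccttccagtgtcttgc
In Fcgr4 the ISRE match GAAAAGGAAA stood at positions -73 to -64 from the start, and a PU.1-type match (TTCCTC on the strand shown) at -22 to -17. In Fcgr1 the GAS match TTCCCAGAA stood at -109 to -101 and a PU.1-type match at -55 to -50. Of 32851 RefSeq promoter windows of this length, 2.98% held an ISRE match, 7.02% a GAS match and 23.3% a GAGGAA match. Of the other members, Fcgr3 and Fcrls held a GAGGAA match, in windows wholly or mostly inside their annotated spans. Fcgr2b, Fcer1g and Fcgrt held none of these letters. The palindrome GTCTAGAC, bound by SMAD proteins, was in 0.167% of windows and in none of the 7. A match is a description of letters and was not tested as a binding site. In mouse P098_07, where the list of interferon-stimulated genes was highest (6.18), Fcgr1 was the lowest of Cre/+ TAM (9.44). The part of interferon in the Fcgr4 and Fcgr1 values was not tested.

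The signals are RMA values on the log2 scale, so that a difference of 1 is a factor of 2. The median signal of an array lay between 4.35 and 4.55 over the 15 arrays. The 7 Fc receptor clusters had mean signals above those of 71.2% (Fcgr4) to 99.7% (Fcer1g) of the 32471 tested clusters, which does not rank transcripts, since clusters differ in probes. The 10 microglial markers of a fixed list averaged 9.85 to 10.36 in Cre/+ TAM, 10.08 to 10.43 in wt TAM and 10.17 to 10.44 in Cre/+ OIL, with Cre/+ TAM mouse P098_07 the lowest of the 15 arrays at 9.85. Tgfbr2 itself had a signal of 8.14 ± 0.17 in Cre/+ TAM, 8.12 ± 0.12 in wt TAM and 8.25 ± 0.29 in Cre/+ OIL (SD), but whether its probes lie in the deleted exons was not examined, so this is no check of the deletion. Since the arrays are of bulk cells, fewer cells of a type and less RNA per cell cannot be told apart.

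The first comparison asked whether Fc receptor expression differed between microglia of tamoxifen-treated Cre carriers and of treated mice without Cre. All 7 genes had a higher mean in Cre/+ TAM than in wt TAM, and the median log2 difference of the 7 was 0.24, against -0.02 over all tested clusters. Of all tested clusters, 44.8% had a difference above 0. At an unadjusted p under 0.05 by limma, 5 of the 7 were higher (Fcgr1, Fcgr2b, Fcgr3, Fcgr4 and Fcer1g) and 0 lower, where 2.92% of all clusters were higher and 2.91% lower. All 7 lie above the median signal of the clusters. In a fit of the 16235 clusters above that median, 5 of the 7 were again higher, where 4.38% of those clusters were. After Benjamini-Hochberg adjustment over all 32471 clusters, 0 of the 7 passed 0.05, and 8 clusters of the whole table did (0.0246%). No member separated the groups completely, as 0.317% of the clusters did with every Cre/+ TAM mouse above every wt TAM mouse. Quantile normalization of the tested clusters left 2 of the 7 (Fcgr2b and Fcgr4) at an unadjusted p under 0.05, where 3.21% of all clusters were higher, with Fcgr1, Fcgr3 and Fcer1g at a difference of 0.13 each. Leaving out 1 array left 2 of the 7 where it was wt TAM mouse P098_10, in which 6 of the 7 genes were lowest of wt TAM, or Cre/+ TAM mouse P098_09 or P098_16, and 3 where it was wt TAM mouse P098_13 or Cre/+ TAM mouse P098_18 or P098_19. Fcgr2b and Fcgr4 stayed under an unadjusted p of 0.05 whichever array was left out.

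Among the activating receptors, Fcgr4, an intermediate-affinity receptor of mouse monocytes and macrophages, differed most. Its log2 signal in Cre/+ TAM was 7.67, 7.11, 5.78, 5.80, 5.79 and 5.27. In wt TAM it was 5.07, 4.95, 4.72, 5.04, 4.93 and 5.89. In Cre/+ OIL it was 5.24, 5.42 and 4.65. Mice P098_07 and P098_09 were above every other mouse, mice P098_14, P098_16 and P098_18 were above every wt TAM and Cre/+ OIL mouse except wt TAM mouse P098_17, and mouse P098_19 lay within the range of both controls. The mean was 6.24 ± 0.93 in Cre/+ TAM and 5.10 ± 0.41 in wt TAM (SD, n = 6 each), a log2 difference of 1.14 (SE 0.33), or 2.20-fold with a 95% interval of 1.35 to 3.58. The limma adjusted p was 0.487.

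Fcgr1, the high-affinity receptor, had a smaller difference. In Cre/+ TAM its log2 signal was 9.44, 9.70, 9.62, 9.81, 9.74 and 9.61. In wt TAM it was 9.49, 9.43, 9.28, 9.19, 9.56 and 9.53. In Cre/+ OIL it was 9.41, 9.78 and 9.40. Of the 6 Cre/+ TAM mice, 5 were above all wt TAM mice, and the exception was mouse P098_07, in which Fcgr4 was highest. The difference was 0.24 (SE 0.10, limma adjusted p = 0.783).

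Fcgr3, a low-affinity receptor abundant on resting microglia and macrophages, had the tightest values of the 3 activating receptors in Cre/+ TAM. Its log2 signal there was 9.87, 9.95, 10.07, 10.05, 10.07 and 10.01. In wt TAM it was 9.89, 9.89, 9.51, 9.63, 10.04 and 9.68, a wider spread, and in Cre/+ OIL it was 9.48, 9.94 and 9.93. The groups overlapped, with 3 of 6 Cre/+ TAM mice above all wt TAM mice. The difference was 0.23 (SE 0.11, limma adjusted p = 0.855).

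The common γ chain gene Fcer1g was nearly constant in Cre/+ TAM, at 10.88, 10.90, 10.84, 10.89, 10.82 and 10.91. In wt TAM it was 10.79, 10.56, 10.38, 10.71, 10.78 and 10.84, and in Cre/+ OIL 10.72, 10.90 and 10.74. The SD was 0.04 in Cre/+ TAM and 0.17 in wt TAM. Of the 6 Cre/+ TAM mice, 5 were above all wt TAM mice, and the difference was 0.20 (SE 0.09, limma adjusted p = 0.821).

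The inhibitory receptor Fcgr2b had the second largest difference. Its log2 signal in Cre/+ TAM was 8.54, 7.87, 7.54, 7.60, 7.65 and 7.52. In wt TAM it was 7.32, 7.37, 7.09, 7.33, 7.12 and 7.60, and in Cre/+ OIL 7.50, 7.53 and 7.38. Like Fcgr4, it was highest in mice P098_07 and P098_09, and among the controls wt TAM mouse P098_17 and Cre/+ OIL mouse P098_05 lay within the Cre/+ TAM range. The difference was 0.48 (SE 0.15), or 1.40-fold with a 95% interval of 1.12 to 1.74, with a limma adjusted p of 0.572.

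Fcgrt and Fcrls did not reach an unadjusted p of 0.05. Fcgrt had 8.51, 7.98, 7.36, 7.74, 7.46 and 7.53 in Cre/+ TAM, against 7.57, 7.34, 6.94, 7.73, 7.58 and 7.95 in wt TAM, and 7.67, 7.55 and 7.51 in Cre/+ OIL. Only mice P098_07 and P098_09 stood above the wt TAM range, and the difference was 0.25 (SE 0.19, limma adjusted p = 0.923). Fcrls had 10.01, 10.18, 10.27, 10.29, 10.35 and 10.24 in Cre/+ TAM, 10.28, 10.19, 9.74, 9.77, 10.28 and 9.96 in the wt TAM mice, and 10.09, 10.42 and 10.31 in the Cre/+ OIL mice. For this microglial marker mouse P098_07 was the lowest of Cre/+ TAM, all groups overlapped, and the difference was 0.19 (95% interval -0.05 to 0.43, limma adjusted p = 0.893).

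**Figure D1:**
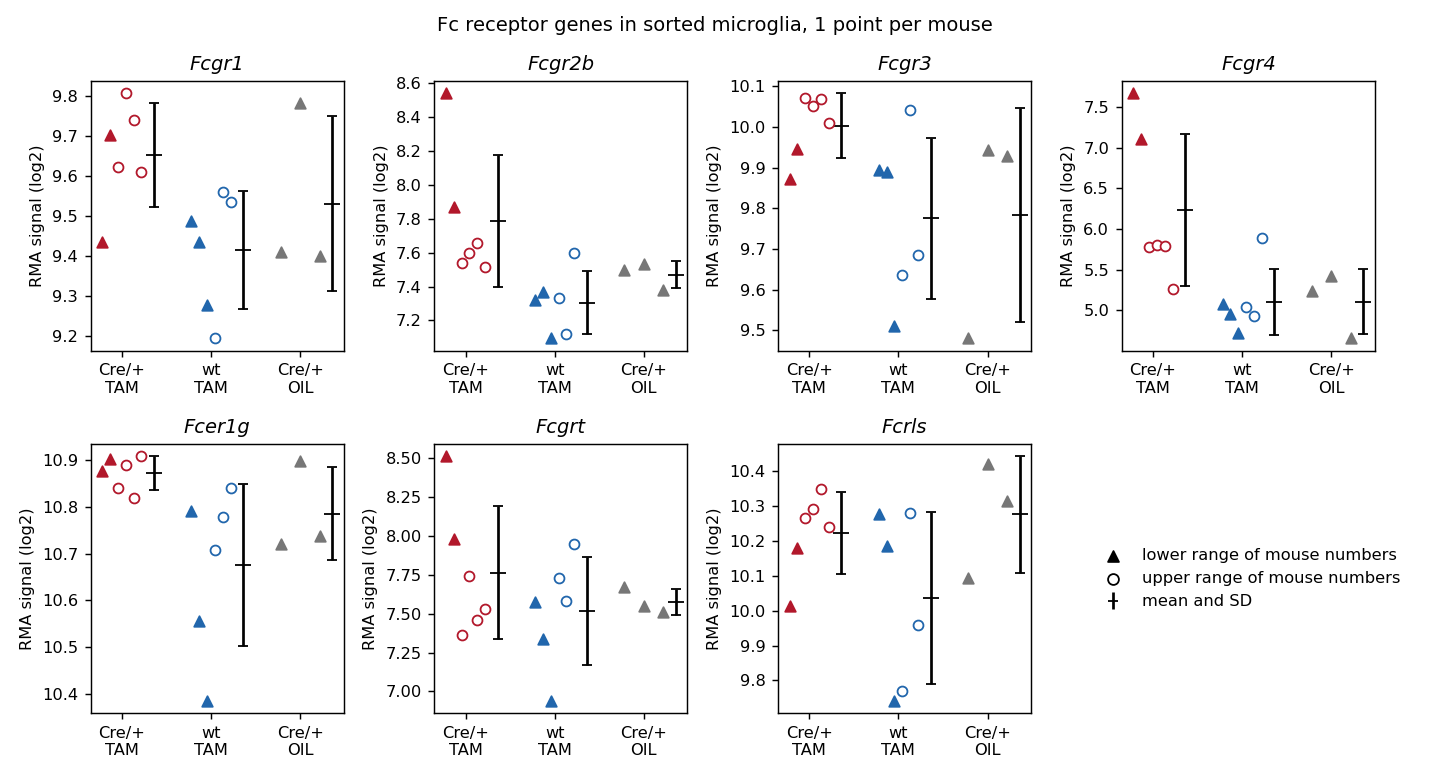
Log2 signal of the 7 Fc receptor genes (y axis, scale differs by panel) in Cre/+ TAM, wt TAM and Cre/+ OIL mice (x axis). Each point is a mouse, filled triangles are mice of the lower number range, open circles are mice of the upper range, and bars show the mean and SD. Fcgr4, Fcgr2b and Fcgrt are highest in the 2 Cre/+ TAM triangles (mice P098_07 and P098_09), whereas Fcgr1, Fcgr3 and Fcrls are higher in the Cre/+ TAM circles than in mouse P098_07.

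The second comparison set the same 6 Cre/+ TAM mice against the 3 Cre/+ OIL mice, which also carry Cre and a single Cx3cr1 copy. It shares its Cre/+ TAM arrays with the first comparison, so the pair are not independent. Of the 7 genes, 6 had a higher mean in Cre/+ TAM, where 48.9% of all clusters did. The median difference of the 7 was 0.19, against -0.005 over all clusters (-0.0048). Only Fcgr4 reached an unadjusted p under 0.05, where 2.93% of the clusters were higher at that level, and no cluster of the whole table was called after adjustment (0%). The mean of Fcgr4 was 6.24 ± 0.93 in Cre/+ TAM and 5.10 ± 0.40 in Cre/+ OIL (SD), a difference of 1.13 (SE 0.41, 95% interval 0.27 to 1.99, limma adjusted p = 0.77). Fcgr2b differed by 0.32 (95% interval -0.07 to 0.71) and Fcgr3 by 0.22 (-0.06 to 0.50), and in both genes, as in Fcgr4, 5 of 6 Cre/+ TAM mice were above all Cre/+ OIL mice. Fcgrt, Fcgr1 and Fcer1g differed by 0.19, 0.12 and 0.09, and Fcrls by -0.05 (95% interval -0.34 to 0.24). For Fcgr1 and Fcer1g, Cre/+ OIL mouse P098_05 was near the top of all mice.

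The third comparison, wt TAM against Cre/+ OIL, has no Tgfbr2 deletion in either group by design and measures genotype at Cx3cr1 and tamoxifen together. Number range differs as well, since all 3 Cre/+ OIL mice are of the lower range and 3 of the 6 wt TAM mice of the upper range. None of the 7 genes had a higher mean in wt TAM (0 of 7 above 0, where 51.9% of all clusters were), and the differences ran between -0.24 for Fcrls and -0.004 for Fcgr4. At an unadjusted p under 0.05, 0 of 7 were higher and 0 lower, where 2.98% of the clusters were higher and 2.24% lower, and no cluster passed after adjustment (0%). The confidence interval for Fcgr4 was -0.87 to 0.86 and that for Fcrls -0.53 to 0.05. With 6 and 3 arrays, true differences of any size within these intervals therefore remain possible.

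**Figure D2:**
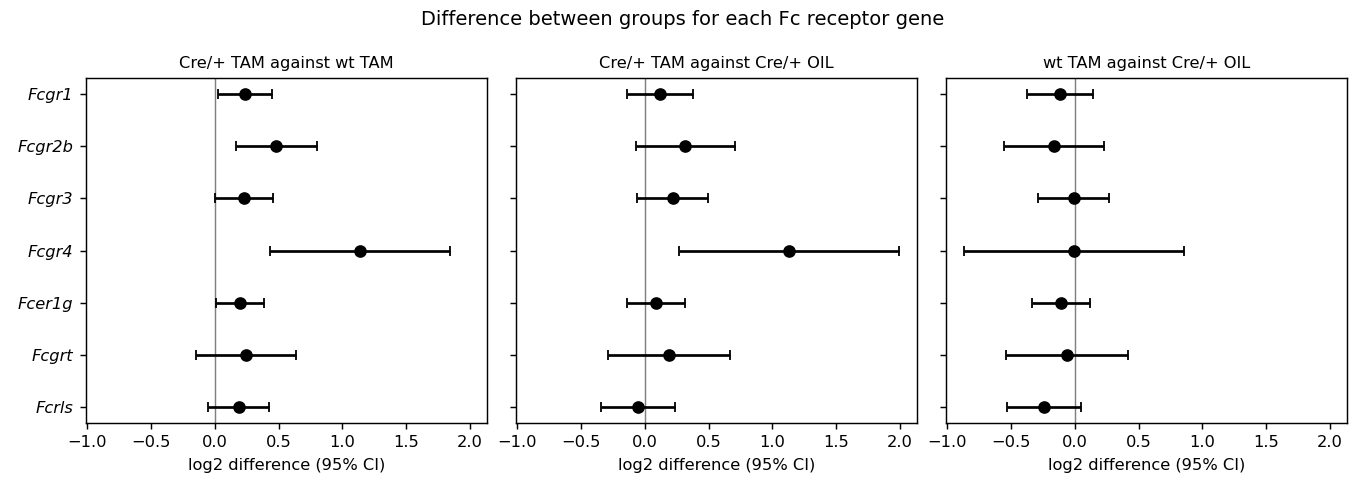
Log2 difference of each Fc receptor gene with its 95% confidence interval (x axis) in Cre/+ TAM minus wt TAM, Cre/+ TAM minus Cre/+ OIL and wt TAM minus Cre/+ OIL (panels). Fcgr4 has the largest difference in both panels with Cre/+ TAM (1.14 and 1.13) and the widest intervals, and in the third panel every interval crosses 0.

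The members fell into different patterns across the Cre/+ TAM mice. In mouse P098_07 Fcgr4 was 2.57 above the wt TAM mean, Fcgr2b 1.24 and Fcgrt 1.00, whereas Fcgr3 was 0.10 above it, Fcgr1 0.02 above it and Fcrls 0.02 below it. In mouse P098_09 Fcgr4 was 2.0 above the wt TAM mean, Fcgr2b 0.57 and Fcgrt 0.46. In mouse P098_18, of the upper range, the values were 0.69 for Fcgr4, 0.35 for Fcgr2b, 0.33 for Fcgr1, 0.29 for Fcgr3 and 0.31 for Fcrls. Fcgr4, Fcgr2b and Fcgrt were thus highest in mice P098_07 and P098_09, whereas Fcgr3 and Fcrls were lower in these mice than in the other 4 Cre/+ TAM mice, and Fcgr1 was lowest in mouse P098_07 and within the range of the other 4 in mouse P098_09.

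Lists of marker genes moved with these mice. The mean of 20 interferon-stimulated genes was 6.18 in mouse P098_07 and 5.83 in mouse P098_09, 5.18 to 5.35 in the other 4 Cre/+ TAM mice, 4.92 to 5.15 in wt TAM and 4.88 to 5.19 in Cre/+ OIL. All 20 had a higher mean in Cre/+ TAM than in wt TAM, 11 at an unadjusted p under 0.05. After adjustment 0 of the 20 were called. Of all clusters, 44.8% had a difference above 0 and 2.92% were higher at that unadjusted level. The mean of 15 markers of border-associated macrophages was 6.53 in mouse P098_07, 5.30 in mouse P098_09, 4.67 to 4.82 in the other 4 Cre/+ TAM mice, 4.23 to 4.46 in wt TAM and 4.20 to 4.35 in Cre/+ OIL. In Cre/+ TAM 14 of the 15 were higher on average than in wt TAM, 6 at an unadjusted p under 0.05. After adjustment 0 of the 15 were called, and the same shares of all clusters apply. Among the 6 was Mrc1, the mannose receptor, with log2 signals of 5.76 to 10.26 in Cre/+ TAM and 5.06 to 5.61 in wt TAM. Mrc1, Pf4 and Ms4a7, all on this list, are reported by the study as increased in Tgfbr2-deficient microglia. Of the 15 markers, 10 were highest of all 15 arrays in mouse P098_07. Pf4, a platelet and macrophage chemokine, was 10.09 there and 8.56 in mouse P098_09, against 6.04 to 6.47 in the other 4 Cre/+ TAM mice, 4.05 to 5.08 in wt TAM and 4.39 to 4.66 in Cre/+ OIL. The scavenger receptor Cd163 was 6.99 in mouse P098_07, against at most 4.37 in the other Cre/+ TAM mice and 4.04 in wt TAM, the sialic acid receptor Siglec1 7.10 against at most 5.12 and 4.64, and the transglutaminase gene F13a1 6.84 against at most 4.43 and 4.33. Lyve1 had 4.52 to 5.06 in Cre/+ TAM and 4.49 to 5.15 in wt TAM, and Cd209f 3.04 to 3.57 in Cre/+ TAM and 3.03 to 3.49 in wt TAM. In mouse P098_07, the highest for the mean of the 15 macrophage markers and for Fcgr4, Fcgr2b and Fcgrt, the mean of the microglial markers was lowest (9.85). The part of these lists in the Fc receptor values was not tested.

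In the controls another marker list stood out. The mean of 10 neutrophil markers was 5.80 in wt TAM mouse P098_10, 4.50 in wt TAM mouse P098_17 and 6.34 in Cre/+ OIL mouse P098_08, against 3.99 to 4.15 in all 6 Cre/+ TAM mice and 3.92 to 4.23 in the remaining controls. Fcgr4 and Fcgr3 are also expressed by neutrophils. Mice P098_10 and P098_08 had the lowest Fcgr4 of their groups (4.72 in wt TAM and 4.65 in Cre/+ OIL), whereas their Fcgr3 differed, the lowest of wt TAM in mouse P098_10 (9.51) and 9.93 in mouse P098_08, close to the highest of Cre/+ OIL (9.94). Mouse P098_17, with the highest Fcgr4 of wt TAM, had the highest Fcgr2b and Fcgrt of that group as well. The part of the neutrophil markers in these values was not tested.

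**Figure D3:**
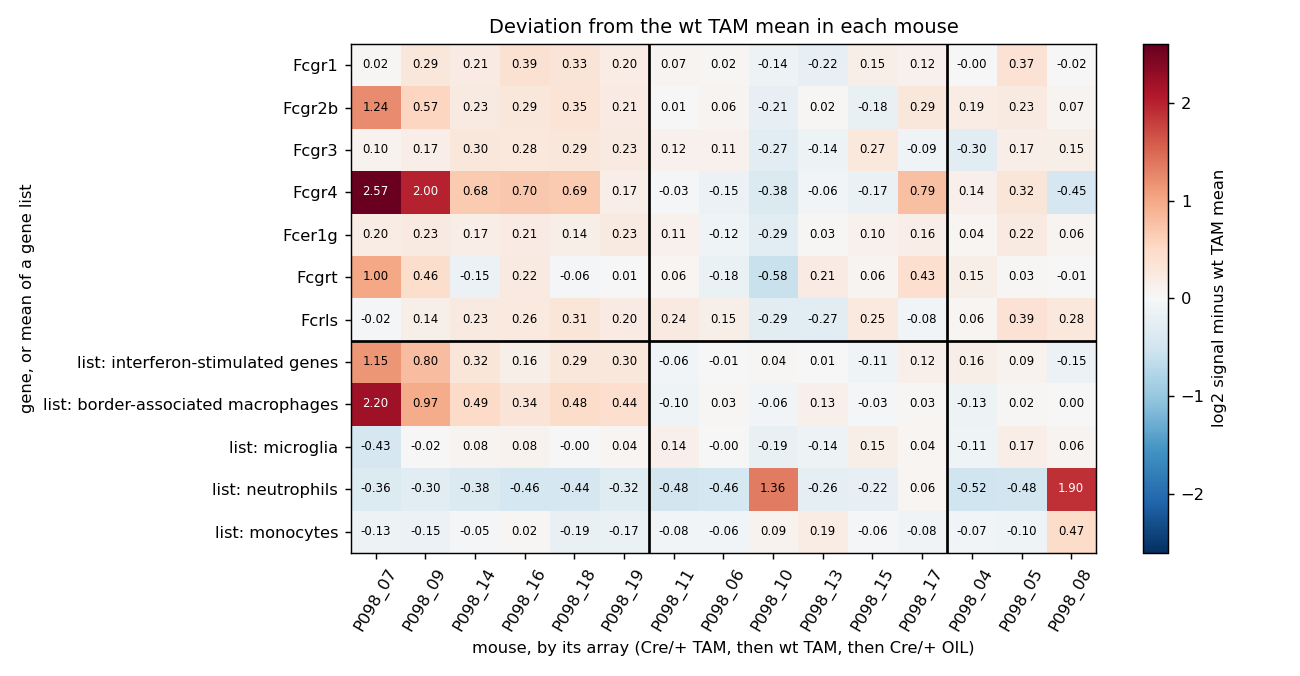
Log2 signal minus the wt TAM mean (colour and printed value) of the 7 Fc receptor genes and of the means of 5 gene lists (rows) in each mouse (columns, Cre/+ TAM left, wt TAM in the middle, Cre/+ OIL right). Mice P098_07 and P098_09 are high for Fcgr4 (2.57 and 2.0), Fcgr2b (1.24 and 0.57), Fcgrt (1.00 and 0.46), the interferon-stimulated genes (1.15 and 0.80) and the border-associated macrophage markers (2.20 and 0.97), and mice P098_10 and P098_08 for the neutrophil markers (1.36 and 1.90).

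Differences were also taken within the ranges of mouse numbers. Mice P098_07 and P098_09 are the only Cre/+ TAM mice of the lower range. The differences by range therefore restate the values of these mice and are no independent result. In the lower range, Fcgr4 differed between 2 Cre/+ TAM and 3 wt TAM mice by 2.47 (SE 0.25, limma adjusted p = 0.0102), the only member called in any setting of this comparison. Fcgr2b differed there by 0.95 (adjusted p = 0.157), Fcgrt by 0.96 (adjusted p = 0.188) and Fcer1g by 0.31, and Fcgr1, Fcgr3 and Fcrls by 0.17, 0.14 and 0.03. In the upper range, Fcgr4 differed between 4 Cre/+ TAM and 3 wt TAM mice by 0.38 (adjusted p = 0.919), Fcgr2b by 0.23, Fcgr1 by 0.27, Fcgr3 by 0.26, Fcrls by 0.28 and Fcer1g by 0.09, and Fcgrt by -0.23, the reverse of its sign over all mice. With the range as a block, Fcgr4 differed by 1.24 (adjusted p = 0.192) and Fcgr2b by 0.52 (adjusted p = 0.269).

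The difference between the ranges was itself tested, a test added after the values were seen. For Fcgr4 the lower range exceeded the upper by 2.10 (SE 0.38, limma adjusted p = 0.0489), and for Fcgrt by 1.19 (adjusted p = 0.143) and for Fcgr2b by 0.72 (adjusted p = 0.567). For Fcgr1, Fcgr3, Fcer1g and Fcrls the differences between ranges were -0.10, -0.12, 0.22 and -0.26, with adjusted p of 0.961 or more. The Fcgr4 call lay just under the threshold, and 35 of the 32471 clusters were called in this test. When each of the 15 arrays was left out in turn, its adjusted p stayed under 0.05 in 2 cases and reached 0.264 without mouse P098_07. Without mice P098_07 and P098_09 together, Fcgr4 differed between Cre/+ TAM and wt TAM by 0.56 (95% interval 0.12 to 1.00), Fcgr2b by 0.27 (0.04 to 0.50), Fcgr1 by 0.28 (0.04 to 0.52) and Fcgr3 by 0.27 (0.01 to 0.54). Fcer1g differed then by 0.19 (-0.04 to 0.41), Fcrls by 0.25 (-0.02 to 0.52) and Fcgrt by 0.01 (-0.33 to 0.34), and the adjusted p of all 7 was 1.00.

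**Figure D4:**
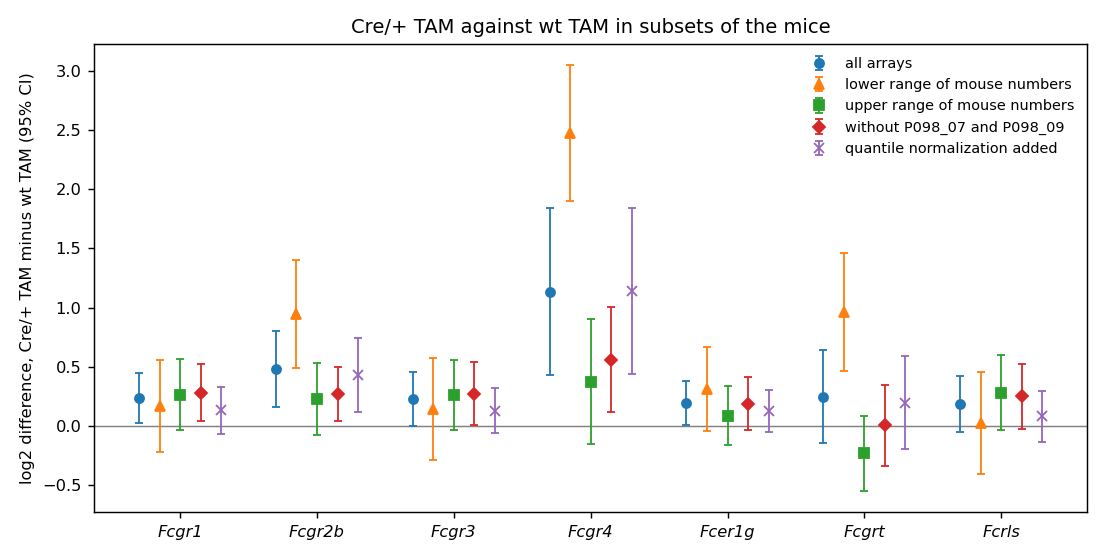
Log2 difference of Cre/+ TAM minus wt TAM with 95% confidence intervals (y axis) for each Fc receptor gene (x axis), over all arrays, within each range of mouse numbers, without mice P098_07 and P098_09, and after added quantile normalization. Fcgr4 ranges between 2.47 in the lower range and 0.38 in the upper range, Fcgrt changes sign, and Fcgr1 and Fcgr3 move least between subsets.

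The remaining Fc receptor genes of a fixed list had little signal. Of 13 measured (Fcer1a, Ms4a2 and Fcer2a for IgE, Fcmr, Fcamr, Pigr and Fcgbp for other classes, the Fc receptor-like genes and Trim21), 10 lay below the median signal, 0 were called, and at an unadjusted p under 0.05 0 were higher and 1 lower in Cre/+ TAM than in wt TAM, where 2.92% of all clusters were higher and 2.91% lower. This was Fcrl1, a receptor-like gene known from B cells that lies near Fcrls on chromosome 3, with Cd5l between them. Its log2 signal in Cre/+ TAM was 6.45, 6.59, 6.86, 6.91, 6.72 and 6.80, against 7.42, 7.35, 7.19, 6.84, 7.14 and 7.21 in wt TAM, and 6.97, 7.25 and 7.31 in Cre/+ OIL. Only wt TAM mouse P098_13 fell within the Cre/+ TAM range. The difference was -0.47 against wt TAM (SE 0.11, limma adjusted p = 0.238) and -0.45 against Cre/+ OIL (adjusted p = 0.643). Trim21, the cytosolic receptor for antibody, differed by 0.23 from wt TAM (adjusted p = 0.874). B2m, the partner chain of Fcgrt, differed by 0.07 (SE 0.07, adjusted p = 0.942).

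Downstream of the receptors, 49 genes of the signalling chain were measured and 33 had a difference above 0 between Cre/+ TAM and wt TAM, as 44.8% of all clusters did. The median of the 49 was 0.06, 0 were called, and at an unadjusted p under 0.05 4 were higher and 0 lower, against 2.92% and 2.91% of all clusters. Lat2, an adaptor of ITAM receptors, had 7.28, 7.86, 7.37, 7.62, 7.69 and 7.79 in Cre/+ TAM, and 7.20, 7.11, 6.68, 6.99, 7.32 and 7.39 in wt TAM, a difference of 0.49 (limma adjusted p = 0.362), and one of 0.44 from Cre/+ OIL (adjusted p = 0.77). Unlike Fcgr4 and Fcgr2b, Lat2 was lowest in mouse P098_07 among the Cre/+ TAM mice. The other 3 were the adaptor Sh3bp2 (0.21, adjusted p = 0.769), the phosphatase Ptprc, or CD45, which was also the marker of the sort (0.25, adjusted p = 0.788), and Ptpn6, or SHP-1, a phosphatase recruited to ITIMs (0.26, adjusted p = 0.805). Tyrobp, Syk, Lyn and Inpp5d were named whatever their values, whereas the 4 genes above were the ones at an unadjusted p under 0.05. Tyrobp, the ITAM adaptor DAP12, differed by 0.17 (adjusted p = 0.897), Syk by 0.09 (adjusted p = 0.942) and Lyn, a Src-family kinase, by 0.01 (adjusted p = 0.993). Inpp5d, or SHIP-1, the lipid phosphatase through which Fcgr2b acts, differed by -0.04 (adjusted p = 0.985).

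Vav3, a guanine nucleotide exchange factor, was singled out after its values were seen. Its log2 signal was 7.32 in mouse P098_07 and 4.89 in mouse P098_09, against 2.92 to 3.50 in the other Cre/+ TAM mice, 3.03 to 3.40 in wt TAM and 3.13 to 3.37 in Cre/+ OIL. It had the largest mean difference of the signalling genes between Cre/+ TAM and wt TAM (0.90, limma adjusted p = 0.89), carried by the same pair of mice in which Fcgr4 was highest.

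**Figure D5:**
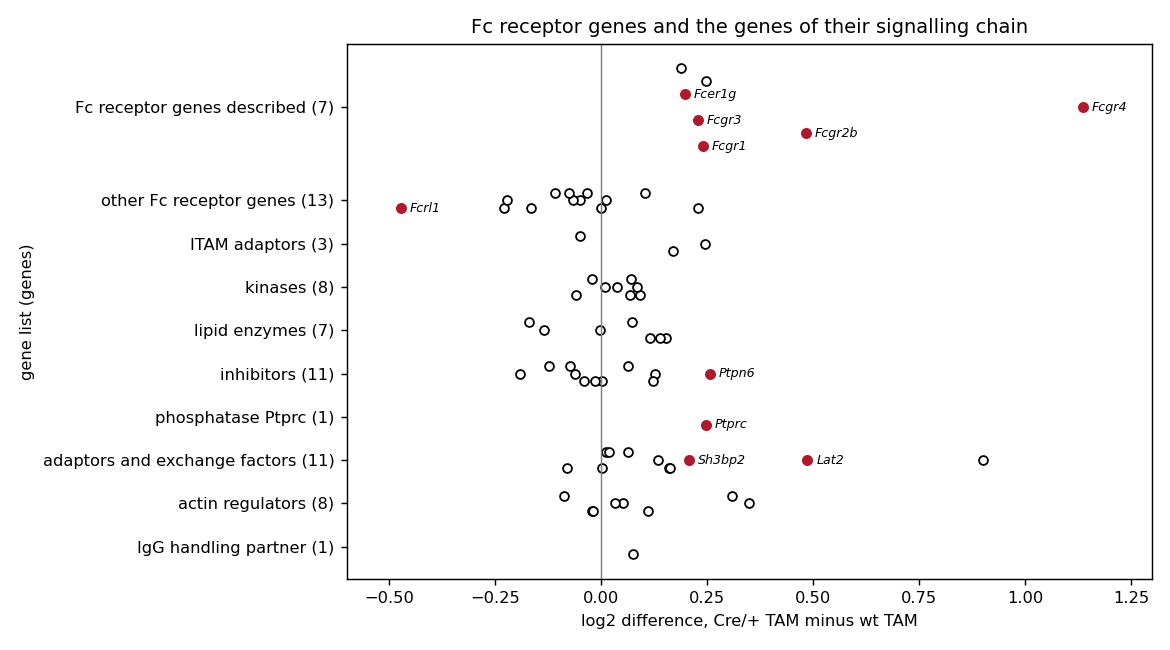
Log2 difference of Cre/+ TAM minus wt TAM (x axis) for the 7 Fc receptor genes and for the fixed lists of other Fc receptor and signalling genes (rows, number of genes in parentheses). Each point is a gene, spread vertically within its row for legibility, filled and named where the unadjusted limma p was under 0.05, and Fcgr4 (1.14) and Fcrl1 (-0.47) lie at the ends.

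Across the 15 arrays, the genes whose signals followed each member most closely were found by Pearson correlation among 15566 genes, as a description over mice that share groups and number ranges. Fcgr4 was followed by Scimp (r = 0.962), an adaptor of antigen-presenting cells, Ms4a7 (0.948), a macrophage gene and one of the 15 border-associated macrophage markers, and Ly9 (0.939). Ms4a7 had 9.82 and 8.48 in mice P098_07 and P098_09, 5.55 to 6.00 in the other Cre/+ TAM mice, 3.23 to 4.36 in wt TAM and 3.41 to 4.00 in Cre/+ OIL, so that, unlike Fcgr4, it did not overlap between Cre/+ TAM and either control. Without mice P098_07 and P098_09 the correlations with Fcgr4 were 0.826, 0.777 and 0.812. Fcgr2b was followed by Sdc3 (0.955), Il2rg (0.954) and Gas6 (0.951), and Fcgrt by Gm21188 (0.933), Cfp (0.885), the complement factor properdin, and Slc40a1 (0.874), the iron exporter. Without the same pair of mice these values were 0.804, 0.869 and 0.796 for Fcgr2b, and 0.899, 0.783 and 0.709 for Fcgrt.

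The other members had different partners. Fcgr3 was followed by Cd33 (0.946), a sialic acid-binding inhibitory receptor of microglia, Pld4 (0.941) and Ly86 (0.919), and these rested less on mice P098_07 and P098_09, with 0.963, 0.952 and 0.920 without them. Fcgr1 was followed by Ube2e1 (0.936), Bcap31 (0.887) and Parvg (0.878), Fcer1g by Psmb9 (0.928), a subunit of the immunoproteasome, Gm4604 (0.927) and Fastk (0.917), and Fcrls by Srsf9 (0.927), Cmtm6 (0.919) and Tnfrsf21 (0.912).

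The neighbours on the chromosome did not all differ as the members did. Fcrla and Fcrlb, which lie beside Fcgr2b, had differences of -0.23 and -0.22 between Cre/+ TAM and wt TAM, with mean signals of 4.12 and 4.52, near the median of the arrays. Sdhc, beyond Fcgr3, differed by 0.13.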

How the data were processed

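RNA of sorted microglia was amplified by SPIA and hybridised to Affymetrix Mouse Gene 2.0 ST arrays, 1 per mouse. The deposited values are log2 signals made by the authors with RMA, which corrects background, normalizes across arrays and summarises probes per transcript cluster. No source used here names the software or genome build. The labels put 6 mice in Cre/+ TAM, 6 in wt TAM and 3 in Cre/+ OIL, and files that hold only the authors' group averages, fold changes and p-values were not used.

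Of 34390 clusters, the 32471 with a gene symbol were fitted together with limma 3.58.1 in R 4.3.3 (a mean per group, all 15 arrays, eBayes), with Benjamini-Hochberg adjustment over all of them and a threshold of 0.05. No filter on low signal was set. A second deposited table of the same arrays differed by at most 0.005. The code was tested on simulated data. Arrays give no read depth, so that their number limits the precision, and amplification of small RNA amounts can add spread between mice.

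The members and gene lists were chosen with earlier results of these data known. All 7 members are named. Of the other Fc receptor and signalling genes, those at an unadjusted p under 0.05 between Cre/+ TAM and wt TAM are named, at most 4 per list, besides Tyrobp, Syk, Lyn, Inpp5d, Ptpn6, Ptprc, B2m and Trim21, and for each member the 3 most similar genes and selected neighbours among the 3 on each side. Promoter windows came from RefSeq (GRCm38.p6) by symbol, for 7 of 7 members. Of the windows listed for Fcgr3, which lie inside its annotated span, the one with the highest coordinates was used. The Fcrls window also lies mostly inside the annotated span of its gene. Alternatives were other normalizations, filters, variance models, sets of samples and tests, number range as a block, and each array left out.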

Additional observations from a re-analysis of the deposited data

Results flagged for a closer look

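Among the 6 mice of Cre/+ TAM, mouse P098_07 lay far from the others for Fcgr2b, at a log2 signal of 8.54, with the next mouse at 7.87 (gap over range 0.653, above Dixon's critical value). Among the 6 mice of wt TAM, mouse P098_17 lay far from the others for Fcgr4, at 5.89, with the next at 5.07 (gap over range 0.698). In all, 28 ends of groups of 6 were looked at for the 7 genes, and chance alone sets off about 1 in 20 groups. The Fcgr4 difference between Cre/+ TAM and wt TAM was larger in the lower range of mouse numbers than in the upper range. The excess was 2.10 (limma adjusted p = 0.0489), in a test added after the values were seen, which called 35 of the 32471 clusters. It restates the values of mice P098_07 and P098_09, the only Cre/+ TAM mice of the lower range. The call was lost when any array was left out except Cre/+ OIL mouse P098_08 and Cre/+ TAM mouse P098_09.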

How the results depend on the processing

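Of 616 fold changes recomputed under an alternative, 592 kept their sign and their side of the threshold. The Fcgr4 difference was called in the lower range of mouse numbers only, at 2.47 from wt TAM (adjusted p = 0.0102) and 2.28 from Cre/+ OIL (adjusted p = 0.0117). Both calls rest on mice P098_07 and P098_09, the only Cre/+ TAM mice of that range, and over all mice 0 of 7 genes were called. The adjusted p of Fcgr4 between Cre/+ TAM and wt TAM ranged over all alternatives from 0.0102 to 1.

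The number of genes higher at an unadjusted p under 0.05 between Cre/+ TAM and wt TAM, with the share of all clusters in parentheses, was 5 over all mice (2.92%), 2 after quantile normalization (3.21%), 3 with the number range as a block (3.44%), 3 in the lower range (3.57%) and 0 in the upper range (2.05%). It was 2 to 5 with each array left out (2.41% to 3.27%). Against Cre/+ OIL it was 1 (2.93%), and 2 with the block (3.4%), 3 in the lower range (3.57%), 0 by the methods' t-test (2.68%) and 0 to 1 with each array left out (2.11% to 4.49%). For wt TAM against Cre/+ OIL it was 0 with each array left out (2.19% to 4.47%).

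Some signs turned under the alternatives. Between Cre/+ TAM and wt TAM, Fcgrt was 0.25 over all mice and -0.23 in the upper range. Between Cre/+ TAM and Cre/+ OIL, Fcer1g was -0.01 (-0.0079) after quantile normalization, and without mice P098_07 and P098_09 Fcgrt was -0.0539 and Fcrls 0.01 (0.0107). Leaving out 1 array, Fcrls was -0.14 to 0.0199. Between wt TAM and Cre/+ OIL, leaving out 1 array gave -0.18 to 0.01 for Fcgr1 (0.0092 at the top), -0.16 to 0.072 for Fcgr3, -0.23 to 0.15 for Fcgr4 and -0.15 to 0.0564 for Fcgrt. Without the arrays with neg in their titles Fcgr1 was 0.0006 and Fcgr4 0.45, and with the block Fcgr4 was 0.31. The cause of these changes was not tested.

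No paired analysis was possible because the titles give each mouse a number of its own. The mean of several rows of a symbol was not run, since each member has 1 row. The number of arrays limits what can be seen, above all with 3 in Cre/+ OIL.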
